A study of Mus musculus with 26 samples.

Results

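Lung of mice lacking both fibroblast growth factor receptors Fgfr3 and Fgfr4 was compared with wild type lung, on the arrays whose titles give an age of 8 days. The members were chosen by title and genotype and are 3 double mutant arrays and 3 wild type arrays, 6 of the 26 arrays of the series. All 45037 probe sets that are not controls were tested. Each array was hybridised with RNA pooled from 3 animals, so a replicate is a pool, and p-values measure the spread between pools.

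The double mutants (DKO) are called compound knock-out in the titles and double knock-out in the characteristics, for Fgfr3 and Fgfr4. The wild type (WT) mice are described in the labels as age-matched C57BL6 animals, while the mutants' strain background is not stated there. Another group of the same title age, 3 arrays of compound heterozygous mice (DHet), is used below to show where carriers of both mutations lay. The titles of these 9 arrays say 8 days, while their characteristics and descriptions say 1 day. The arrays are therefore called the set titled 8 day, and the age behind that name is not settled. The other age sets are titled 1 day (labelled 8 days in the characteristics) and 28 days. They enter only the tests of whether a difference between DKO and WT was of another size there. The 28-day set holds 2 WT arrays, and every other group has 3 arrays.

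Fibroblast growth factors signal through receptor tyrosine kinases, and the pathway is under feedback from its own targets, such as the Sprouty and Dusp genes. In lung the ligands and receptors carry signals between mesenchyme and epithelium during branching, and again after birth, when the airspaces are divided into alveoli. Mice that lack both Fgfr3 and Fgfr4 are known for alveoli that fail to form properly after birth.

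The values are log2 probe set levels as deposited, and differences are DKO minus WT on that scale. Array medians of the 6 arrays lay between 5.28 and 5.32, and across probe sets the least similar pair of them still had a Pearson r of 0.990. A call means that a probe set's adjusted p in limma was below 0.05. Of the 45037 probe sets 885 were called (1.97%), of which 523 rose (1.16%) and 362 fell (0.804%) in DKO. The rises named 398 genes and the falls 283, and before adjustment 5654 probe sets had a p under 0.05. The differences were mostly small. Their median size was 0.52 log2, and 49 rises and 19 falls were larger than 2-fold. The count depended on single arrays. Leaving out DKO replicate 2 or 3 brought it to 421 or 360, and leaving out WT replicate 1 or 3 to 392 or 526. It was 194 when the spread was taken from the 6 arrays alone, of which 164 were among the 885. The share of higher calls was 59.1% over all arrays, 67.9% without DKO replicate 1 and 49.7% without DKO replicate 3.

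The targeted receptors were read first. For Fgfr3 the DKO arrays read 8.97, 8.98 and 8.94, the DHet arrays 9.44 each, and the WT arrays 9.81, 9.96 and 9.74. The 3 genotypes did not overlap, and DHet lay between the others. DKO was lower by log2 -0.87 ± 0.130 (SE), with an adjusted p of 0.000595. The other Fgfr3 probe set fell by 0.77 (adjusted p = 0.00734), a call lost with the spread of the 6 arrays and if DKO replicate 2 or WT replicate 1 was left out. Fgfr4 read 7.07, 7.26 and 6.70 in DKO, 7.73, 7.78 and 7.62 in DHet, and 7.94, 7.83 and 8.11 in WT. Here too DKO was below every other array (log2 -0.95 ± 0.113 SE, adjusted p = 4.02e-05). Of the 4 other Fgfr4 probe sets 1 was called, at low level (4.19 against 4.92 log2, adjusted p = 0.0275), and not once any single one of the 6 arrays was left out. The remaining 3 differed by -0.22, -0.01 and -0.01 (adjusted p = 0.388, 0.99 and 0.985). Signal was left in DKO for both genes. Where these probes lie relative to the deleted parts is not stated in the labels, so the levels neither measure nor check the deletion.

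**Figure D1:**
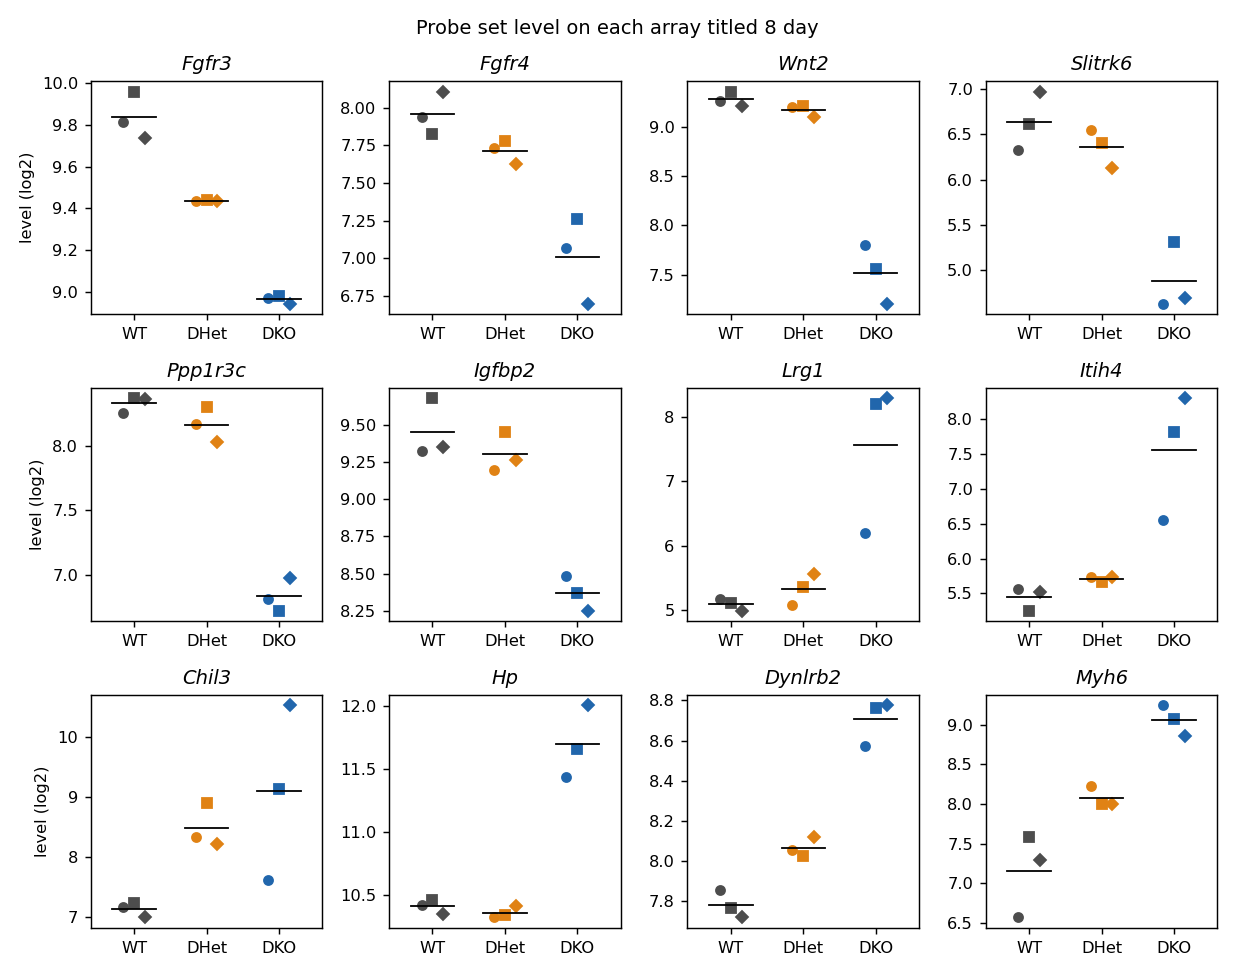
Deposited log2 level (y axis, a separate range in each panel) of 1 probe set of each of 12 genes on the 9 arrays titled 8 day, by genotype. Circle, square and diamond are replicates 1, 2 and 3 and bars are group means; Fgfr3 and Fgfr4 were lowest in DKO, and Lrg1, Itih4 and Chil3 were lowest in replicate 1 among the DKO arrays.

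Apart from the targeted receptors, no gene of the FGF lists was called in any of its probe sets in limma. Outside those lists, Fgfbp1, which encodes an FGF-binding protein and was picked after its value was seen, rose by 0.72 (adjusted p = 0.0123). Fgfr1 and Fgfr2, the receptors left intact, differed by 0.00 and 0.13 in their brightest probe sets (adjusted p = 0.995 and 0.572). The decoy receptor Fgfrl1 and the Klotho co-receptors Klb and Kl differed by -0.01, 0.01 and 0.01. Of 12 ligand genes 0 were called in limma and 0 had an unadjusted p under 0.05, with differences from -0.09 (Fgf1, Fgf23) to 0.14 (Fgf18). Among them Fgf10, the ligand of branching, differed by 0.03, and Fgf7, a mesenchymal ligand of the epithelial receptor, by 0.05. Fgf10 read low, at a mean of 4.26 in DKO and 4.23 in WT, where the median of all probe sets was 5.30. Fgf2, Fgf15, Fgf16, Fgf20, Fgf21, Fgf22, Fgf23, Klb and Kl also lay below that median in both groups. Whether these genes were detected was not tested, and a change in them could be missed. Of 18 measured feedback and target genes 0 were called and 2 had an unadjusted p under 0.05. Lowest of these was the inhibitor Spry4, at 7.34, 7.39 and 7.06 in DKO against 7.51, 7.64 and 8.10 in WT (log2 -0.49 ± 0.146 SE, adjusted p = 0.0895). Its 3 other probe sets lay at -0.60, -0.37 and -0.35, none of them called (adjusted p = 0.273, 0.546 and 0.435). The phosphatase gene Dusp6 differed by -0.07 and the transcription factor genes Etv4 and Etv5 by -0.03 and -0.01. A miss of the threshold does not show that these genes were alike in the genotypes.

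The largest falls were in Slitrk6 and Wnt2. Slitrk6 encodes a membrane protein with leucine-rich repeats. It read 4.63, 5.31 and 4.69 in DKO against 6.33, 6.62 and 6.97 in WT (3.39-fold lower, log2 -1.76 ± 0.182 SE, adjusted p = 1.16e-05). Wnt2, a Wnt ligand made by lung mesenchyme, read 7.80, 7.56 and 7.21 in DKO, 9.20, 9.21 and 9.10 in DHet, and 9.26, 9.35 and 9.21 in WT. The DHet arrays overlapped the WT arrays and were far above every DKO array, and the difference of DKO from WT was log2 -1.75 ± 0.201 (SE, adjusted p = 2.79e-05). Of 29 measured Wnt pathway genes 1 rose and Wnt2 fell, 4 were higher and 4 lower at an unadjusted p under 0.05, and the median was 0.02. The riser was the secreted inhibitor Sfrp2 (7.45, 7.67 and 7.40 against 6.67, 6.74 and 6.83), whose call was lost when any one array other than DKO replicate 1 was left out. The related Sfrp1 rose in a dimmer probe set only (0.65, adjusted p = 0.0349). The target gene Axin2 was at -0.31 (adjusted p = 0.16).

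Further genes of lung mesenchyme were called. Among 20 measured markers of lipofibroblasts and matrix fibroblasts 5 fell and 2 rose (median -0.18, against -0.00087 over all 18193 genes). Over all genes, each read by its brightest probe set, 2.44% were called, 1.77% higher and 0.671% lower. By the same reading 2581 of the 18193 genes had an unadjusted p under 0.05 in limma. All counts of list members use that reading, and members called only in a dimmer probe set are named beside them. The 5 lower were Wnt2, Fgfr4 itself, the matrix gene Frem1, the mesenchymal transcription factor gene Tcf21 and the elastic fibre gene Mfap4. Fgfr4 is a targeted gene, so its fall says nothing about these cells, and only the other lower genes bear on the list. Frem1 read 8.59, 7.98 and 7.74 in DKO and 9.37, 9.42 and 9.25 in WT, with DHet at 9.32, 9.47 and 9.18 (log2 -1.24 ± 0.214 SE). Mfap4 was lower by 0.45, a call lost without any one array except WT replicate 3. Npnt and Cdh11 were lower in dimmer probe sets only (-0.51 to -0.67 in 3 of Npnt and -0.82 in 1 of Cdh11). In the other direction went Inmt, a methyltransferase gene, and the lipase gene Lpl. Inmt read 8.26, 10.23 and 10.19 in DKO against 7.72, 7.71 and 7.68 in WT, so replicate 1 stood far below its fellows (adjusted p = 0.00408, and 0.126 with the spread of the 6 arrays). In bulk RNA, fewer cells of a type and less RNA per cell cannot be told apart.

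Further falls belonged to varied processes. Ppp1r3c, which targets a phosphatase to glycogen, read 6.81, 6.73 and 6.97 in DKO, 8.16, 8.30 and 8.03 in DHet and 8.26, 8.36 and 8.36 in WT (2.81-fold lower, adjusted p = 1.28e-05), and its other probe set fell by 1.29. A2m, a protease inhibitor gene, read 5.39, 5.30 and 5.47 against 6.63, 6.70 and 6.91. In both genes every DHet array was closer to WT than to DKO. Shisa3, Ptpn5 (a tyrosine phosphatase gene) and Adam12 (a metalloprotease gene) fell by 1.19, 1.19 and 1.04 log2. The binding protein gene Igfbp2, also used as a marker of alveolar type 1 cells, read 8.48, 8.37 and 8.25 against 9.32, 9.68 and 9.35 (2.12-fold lower, adjusted p = 0.00162). It was the single called gene among 16 alveolar type 1 markers, whose median was 0.13.

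Several genes were low on the DHet arrays as well. The protease gene Ctse read 6.31, 6.20 and 5.68 in DKO and 7.58, 7.63 and 7.43 in WT, while DHet read 5.75, 5.61 and 5.62. Its other probe set lay the opposite way and was not called (0.40, adjusted p = 0.232). Pisd-ps3, a pseudogene that may share signal with its parent gene, read 4.33, 4.31 and 4.24 in DKO, 4.67, 4.42 and 4.43 in DHet and 6.07, 5.31 and 5.43 in WT. The complement inhibitor gene Cd59a read 7.46, 7.71 and 7.56 in DKO, 7.57, 7.57 and 7.48 in DHet, and 8.55, 8.46 and 8.59 in WT. Ctse and Cd59a were among the probe sets called between DHet and WT, and Pisd-ps3 was not. In these genes all 6 mutant arrays lay below all 3 WT arrays, whether 1 or both copies of the receptors were mutated. A strain difference between the mutants and the C57BL6 controls cannot be told apart from the genotype with these labels.

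The largest rises were in Lrg1 and Itih4, genes of the acute phase, the response in which secreted defence proteins increase. Chil3 (1.96), Myh6 (1.91) and Fabp4 (1.90), described with other lists, rose more than the acute phase genes Lcn2 (1.89) and Hp (1.29). Lrg1 read 6.20, 8.19 and 8.29 in DKO, 5.08, 5.36 and 5.56 in DHet, and 5.18, 5.11 and 4.99 in WT. DKO did not overlap the other groups, which overlapped each other, but the first DKO array rose far less than the other DKO arrays (7.56 ± 1.18 against 5.09 ± 0.0921, SD, n = 3 each). With the spread of the 6 arrays the adjusted p was 0.0731, against 0.00023 with that of all arrays. Itih4 followed the same order, with 6.56, 7.81 and 8.29 in DKO against 5.56, 5.26 and 5.52 in WT (adjusted p = 1.66e-05, and 0.0556 with the spread of the 6 arrays). The iron-sequestering protein gene Lcn2 read 9.53, 10.50 and 10.91 against 8.35, 8.67 and 8.25. Haptoglobin, Hp, had the smallest adjusted p among the genes described. It read 11.44, 11.66 and 12.01 in DKO, 10.32, 10.34 and 10.41 in DHet and 10.42, 10.46 and 10.35 in WT (2.45-fold higher, adjusted p = 2.18e-07). In the list of acute phase genes 5 of 19 measured rose, the fifth being the lipopolysaccharide-binding protein gene Lbp, and A2m fell. In all 16 of the 19 lay above 0, 8 were higher and 2 lower at an unadjusted p under 0.05, and the median was 0.09. Leaving out single arrays gave 6 to 9 called members, the most without DKO replicate 1, and the spread of the 6 arrays gave 3. Saa3, Serpina3n and Orm1 lay at 1.14, 0.87 and 0.54 without a call (adjusted p = 0.107, 0.21 and 0.312). Serum amyloid genes Saa1 and Saa2 lay at 0.08 and -0.26 and the fibrinogen genes Fga, Fgb and Fgg at 0.05, -0.07 and 0.27, none of them called. Among the liver genes 0 of 8 were called in limma, with 0 at an unadjusted p under 0.05.

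Airway epithelium contributed the most called genes of any list. Ciliated cells carry the motile cilia that clear mucus. Of 23 measured ciliated cell markers 12 rose and none fell, with a median of 0.48 and 17 markers without overlap between DKO and WT (15.7% of all probe sets did not overlap). Dynlrb2, a dynein light chain gene, read 8.57, 8.76 and 8.78 in DKO, 8.06, 8.03 and 8.12 in DHet, and 7.86, 7.77 and 7.72 in WT (log2 0.92 ± 0.0874 SE, adjusted p = 5.21e-06). Capsl rose by 0.79, and the radial spoke genes Rsph4a and Rsph1 by 0.57 and 0.53. Foxj1, the master regulator of motile cilia, rose by 0.35 (adjusted p = 0.046), while Rfx2 and Rfx3, whose products bind the X-box motif of ciliary genes, were at 0.20 and 0.14 and not called. DHet arrays were slightly above WT in the mean of this list, at 5.50 to 5.56 against 5.46 to 5.47, and DKO arrays at 5.79 to 5.94. The list held 6 or 5 calls without DKO replicate 2 or 3, 7 or 5 without WT replicate 1 or 3, and 4 with the spread of the 6 arrays.

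The X-box stretches are shown because these genes moved together. The half-site searched was GTTGCC on both strands of the 250 bases before each gene's start (RefSeq, GRCm38.p6), and no other motif was searched for these genes. It stood in 3 of the 9 called ciliated genes with an entry (33.3%), in 9 of 19 measured members with an entry (47.4%) and in 2833 of 27025 promoters in all (10.5%). Capitals mark the half-site, which begins at position -51 in Dynlrb2 (chr8:116504944-116504989, plus strand), at -67 and -16 in Fam183b (chr11:58801961-58802047, minus strand) and at -34 in Enkur (chr2:21205374-21205419, minus strand), counted from the start.
Dynlrb2: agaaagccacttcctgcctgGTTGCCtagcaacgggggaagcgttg
Fam183b: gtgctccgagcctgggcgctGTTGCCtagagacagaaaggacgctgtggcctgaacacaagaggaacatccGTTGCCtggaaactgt
Enkur: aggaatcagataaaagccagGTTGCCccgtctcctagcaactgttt
Dynlrb2, Fam183b, a gene of ciliary tissues, and Enkur, which encodes a protein of sperm and cilia, rose by 0.92, 0.57 and 0.61. The match is a description of letters, and called members held it no more often than the measured members as a whole.

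Club cells, the secretory cells of the airways, gave 6 rises and no falls among 17 measured markers (median 0.65). Besides Hp, the monooxygenase gene Fmo2 read 10.12, 11.21 and 11.68 in DKO, 9.52, 9.53 and 9.93 in DHet and 9.39, 9.83 and 9.28 in WT (log2 1.502 ± 0.277 SE). The aldehyde dehydrogenase gene Aldh1a1 rose by 1.15, with 10.91, 11.18 and 11.53 against 10.06, 10.10 and 10.02. The secretoglobin gene Scgb3a2 rose by 0.60, from 12.68, 12.77 and 12.47 in WT to 13.14, 13.20 and 13.36 in DKO. Gabrp rose in a dimmer probe set only (0.91). The defining club cell gene Scgb1a1 was at 0.28 and not called. In Hp, Fmo2, Aldh1a1 and Scgb3a2 alike replicate 1 was the lowest and replicate 3 the highest of the DKO arrays. The club cell calls dropped to 3 if DKO replicate 3 was left out, to 4 if WT replicate 1 was, and to 3 with the spread of the 6 arrays.

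Alveolar type 2 cells, which make surfactant, gave 4 rises among 18 measured markers (median 0.24). The chitinase-like gene Chil1 read 10.97, 11.02 and 11.83 against 10.45, 10.46 and 10.28, and DHet read 10.79 on each array. The lysozyme genes Lyz1 and Lyz2, near-identical copies that can share signal and are expressed by macrophages as well, rose by 0.32 and 0.44. The surfactant gene Sftpa1 rose by 0.37, from 12.80, 12.92 and 12.83 to 13.09, 13.19 and 13.39. Sftpc, the most specific gene of the cell type, was at -0.06 and Sftpb at 0.16, neither called. Cxcl15 rose in a dimmer probe set only (0.59, adjusted p = 0.000437). Leaving out DKO replicate 3 ended all of these calls, and so did the spread of the 6 arrays (0 in each case). Only 2 were made if DKO replicate 2, WT replicate 1 or WT replicate 3 was left out, and 2 with the spread of the 9 arrays of the set.

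Macrophage markers rose in 9 of 25 measured members, with none lower and a median of 0.41. Chil3, a chitinase-like lectin gene of alternatively activated macrophages, read 7.62, 9.14 and 10.53 in DKO, 8.34, 8.90 and 8.21 in DHet, and 7.17, 7.24 and 6.997 in WT. DHet thus lay above WT on every array and above the first DKO array. Of 12 alternative activation genes Chil3 was the single one called, and 0 were with the spread of the 9 or of the 6 arrays. The mean of that list was 5.86 to 6.58 in DKO, 6.21 to 6.25 in DHet and 5.81 to 5.89 in WT. The lipid carrier gene Fabp4 read 7.26, 8.04 and 8.36 against 5.85, 6.08 and 6.03, and the scavenger receptor gene Marco 5.99, 7.27 and 7.92 against 5.63, 5.40 and 5.49. The mannose receptor gene Mrc1 rose by 0.59, and the complement genes C1qa, C1qb and C1qc by 0.41, 0.49 and 0.47. The general macrophage gene Csf1r was at 0.20 and not called in its brightest probe set, while a dimmer one was called higher (0.35, adjusted p = 0.031). Adgre1 and Cd68 lay at 0.35 and 0.41, not called, and Siglecf, a marker of the alveolar type, at -0.05. The list mean stood 0.27 to 0.70 above its WT mean on the DKO arrays and 0.11 to 0.13 above it on the DHet arrays. The acidic chitinase gene Chia1, no member of that list, read 8.64, 9.19 and 9.93 in DKO, 8.92, 9.13 and 8.85 in DHet and 7.90, 7.56 and 7.43 in WT, so that every DHet array was above every WT array, though the difference between DHet and WT was not called. Of the other immune lists, neutrophil and acute inflammation genes gave 0 calls of 17 in limma with 2 at an unadjusted p under 0.05, lymphocyte markers 0 of 14 with 1, and interferon response genes 0 of 17 with 0. The neutrophil list had 3 calls with the spread of the 9 arrays of the set and 1 with that of the 6 arrays, and the lymphocyte list 1 without DKO replicate 1.

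Calls for macrophage markers rested on few arrays. The list held 4 or 3 calls without DKO replicate 2 or 3, and 5, 5 or 6 without WT replicate 1, 2 or 3. It held 5 and 1 with the spreads of the 9 and of the 6 arrays. The calls of Chil3 and Marco were lost with both of these spreads (adjusted p = 0.102 and 0.202 for Chil3, 0.0559 and 0.142 for Marco), and that of Marco without DKO replicate 3 as well.

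Genes of antioxidant and metal defence rose in 7 of 18 measured members, none fell, and the median was 0.41. The extracellular glutathione peroxidase gene Gpx3 read 9.34, 10.43 and 10.74 in DKO, 9.004, 8.92 and 8.95 in DHet and 8.91, 8.97 and 9.06 in WT (log2 1.19 ± 0.243 SE, adjusted p = 0.0101). Gpx2 rose by 0.87, and the glutathione transferase genes Gsta3 and Gsta4 by 1.06 and 0.47. The metallothionein genes Mt1 and Mt2, whose products bind zinc and copper, rose together. Mt1 read 9.32, 9.58 and 9.83 against 8.63, 8.76 and 8.58, and Mt2 8.54, 9.18 and 9.15 against 7.93, 8.13 and 7.92. Heme oxygenase, Hmox1, was at 1.36 without a call. With DKO replicate 3 left out 0 of these genes were called, with DKO replicate 2 left out 2, with WT replicate 1 left out 3 and with WT replicate 2 or 3 left out 4, while the spread of the 6 arrays gave 2.

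The 250 bases before the start of Mt1 and Mt2 are shown for the metal response element, the site through which metals induce metallothioneins. The core searched was TGCACNC or TGCGCNC on both strands, and 5749 of 27025 promoters held it (21.3%). Capitals mark its matches, at position -23 in Mt1 (chr8:94178839-94179088, plus strand, RefSeq, GRCm38.p6) and at -223, -128 and -50 in Mt2 (chr8:94172368-94172617, plus strand), the last on the opposite strand.
Mt1: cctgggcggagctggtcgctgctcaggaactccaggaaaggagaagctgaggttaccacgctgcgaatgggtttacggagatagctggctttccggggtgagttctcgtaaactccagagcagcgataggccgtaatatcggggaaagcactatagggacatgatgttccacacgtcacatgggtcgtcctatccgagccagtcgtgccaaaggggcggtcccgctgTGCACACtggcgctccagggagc
Mt2: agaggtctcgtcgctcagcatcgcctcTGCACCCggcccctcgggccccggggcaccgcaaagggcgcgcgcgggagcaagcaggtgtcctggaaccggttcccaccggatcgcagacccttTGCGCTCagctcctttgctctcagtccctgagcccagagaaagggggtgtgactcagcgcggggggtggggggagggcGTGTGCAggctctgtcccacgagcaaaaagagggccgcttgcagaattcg
Both genes also belong to the list of glucocorticoid responsive genes, of which 4 of 20 rose (median 0.47), Mt1, Mt2, Lcn2 and the kinase gene Sgk1. Pdk4, Fkbp5 and Klf9, common readouts of that hormone, lay at 1.24, 1.03 and 0.55 without a call, and Tsc22d3 and Per1 at 0.17 and 0.28. That list held 1 call with DKO replicate 3 left out, and 2 with DKO replicate 2, WT replicate 1 or WT replicate 3 left out.

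**Figure D2:**
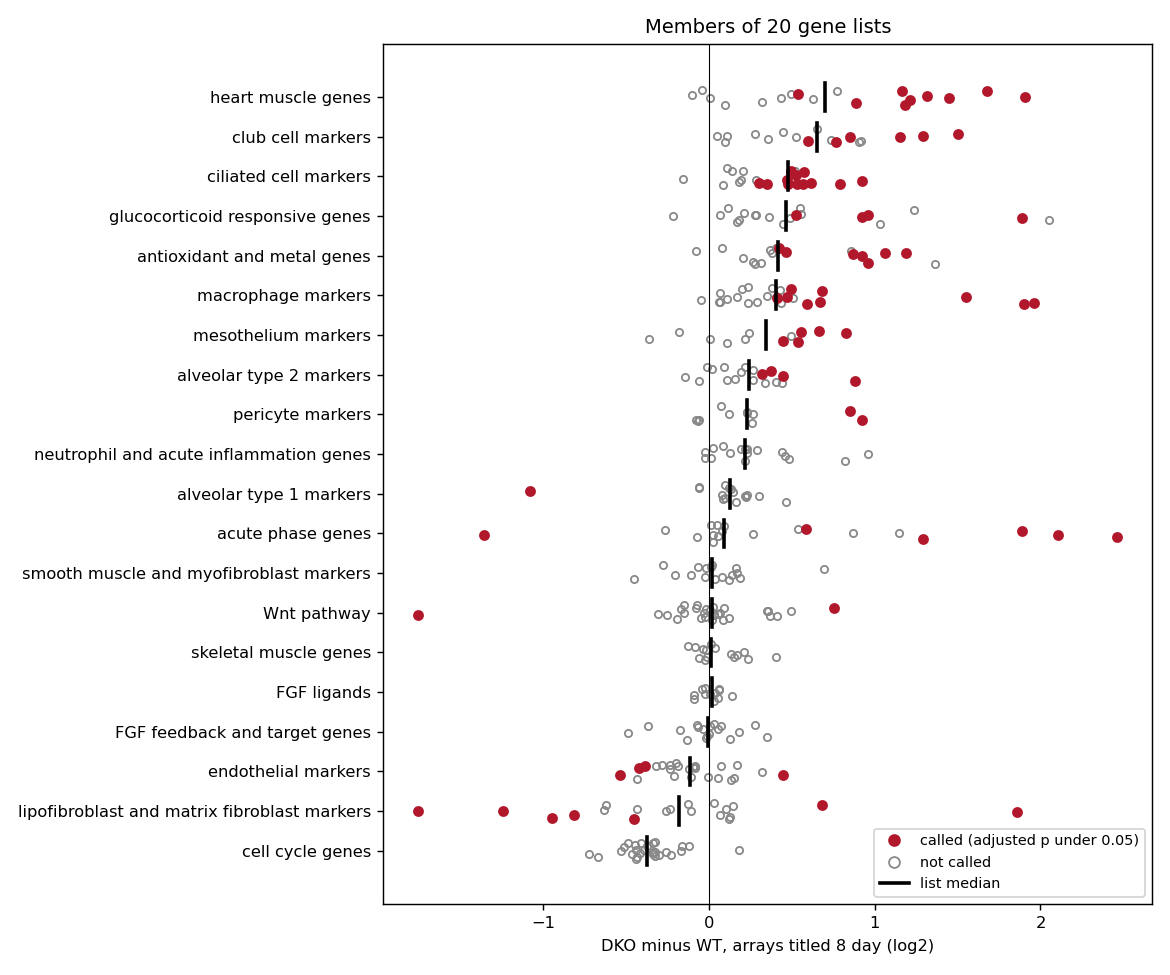
DKO minus WT (x axis, log2, arrays titled 8 day) for each measured member of 20 gene lists, where filled red points passed an adjusted p of 0.05, open points did not, and a bar is the list median. Heart muscle genes had the highest median, 0.70, and cell cycle genes the lowest, -0.37, with 0 of 27 members called in their brightest probe sets.

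Heart muscle genes differed between the genotypes in another way. In mice, cardiac muscle surrounds the pulmonary veins within the lung, and heart tissue can also be taken along at dissection. Of 18 heart muscle genes 9 rose and none fell (median 0.70). The cardiac myosin heavy chain gene Myh6 read 9.25, 9.07 and 8.86 in DKO, 8.23, 8.01 and 8.01 in DHet, and 6.57, 7.59 and 7.29 in WT. The troponin gene Tnnt2 read 8.25, 8.36 and 8.38, then 7.27, 7.40 and 7.35, then 6.21, 6.87 and 6.88 in the same order, and Tnni3 7.24, 7.36 and 7.23, 6.47 on each DHet array, and 5.95, 6.24 and 6.09. The 3 genotypes did not overlap in these genes, DHet lay between, and the 3 DKO arrays were alike. Myl7, Sln and Myl4, which belong to atrial muscle, rose by 1.45, 1.32 and 0.89. Myl3, a myosin light chain gene of ventricular muscle, rose by 0.54, 1.05 and 0.52 in its called probe sets. Myl2 and Myh7, also of ventricular muscle, were at -0.04 and 0.10 without a call. The natriuretic peptide genes Nppa, of atrial muscle, and Nppb were at 0.01 and -0.10, also without a call. The titin gene Ttn, expressed in heart and skeletal muscle, rose by 1.58. Pln, which encodes phospholamban, rose in a dimmer probe set only (0.49). Of 15 skeletal muscle genes 0 were called in limma, with 2 at an unadjusted p under 0.05 and 1 called with the spread of the 9 arrays. The heart count was 8 to 10 when single arrays were left out, and 8 with the spread of the 6 arrays. The parts of dissection and of pulmonary vein muscle in these levels were not tested.

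**Figure D3:**
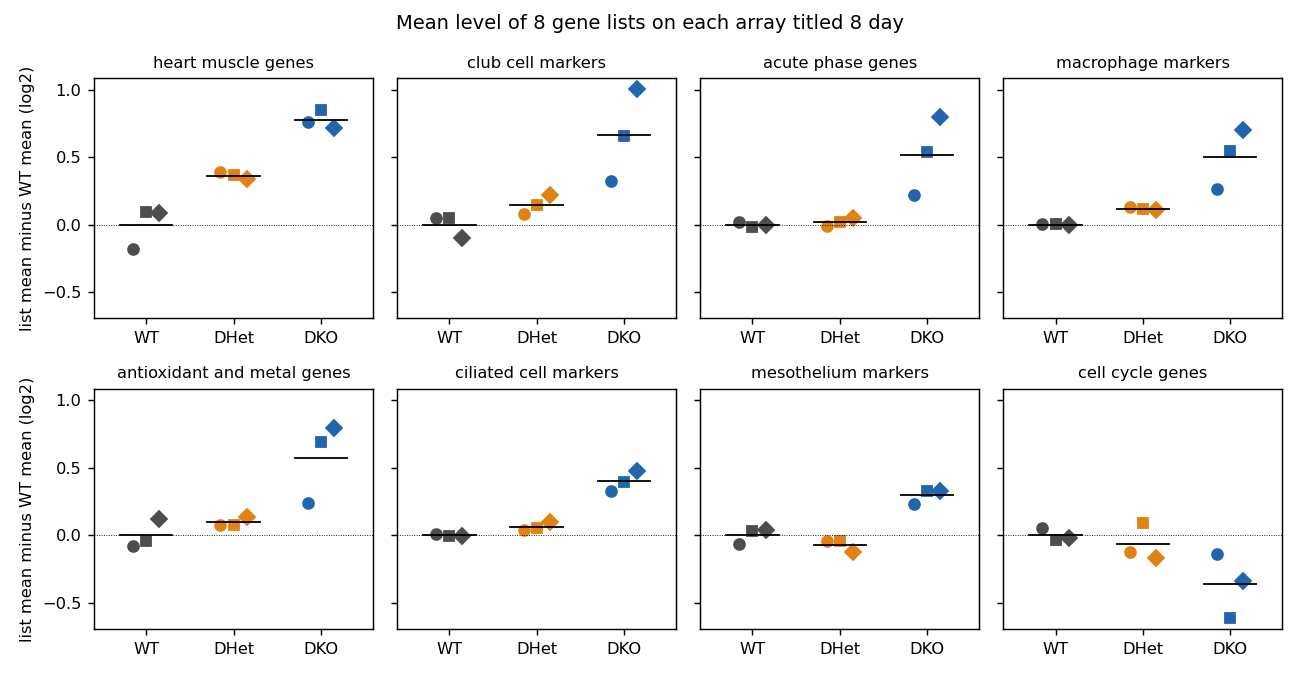
Mean log2 level of the measured members of 8 gene lists on each array titled 8 day, minus the WT mean of the list (y axis, shared by all panels), with circle, square and diamond for replicates 1, 2 and 3 and bars for group means. DKO replicate 1 was the lowest DKO array for club cell, acute phase, macrophage and antioxidant genes, and DHet lay between WT and DKO for heart muscle genes.

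Vessel-associated genes gave a mixed picture. Pericytes, the contractile cells around capillaries, were represented by 11 markers, of which Kcnj8 and Abcc9 rose. These encode the pore and the regulatory subunit of 1 type of ATP-sensitive potassium channel. Kcnj8 read 7.84, 7.82 and 7.82 in DKO, 7.17, 7.09 and 7.26 in DHet and 7.12, 6.57 and 7.02 in WT (adjusted p = 2.76e-05). Abcc9 read 7.88, 8.03 and 8.07 in DKO against 7.06, 7.26 and 7.11 in WT (adjusted p = 4.87e-06), and its 2 other probe sets rose by 0.67 and 0.65. Both calls held without any single array and with either other spread. Both genes are also expressed in heart muscle, and the part of heart muscle in their rise was not tested. Among 24 endothelial markers 3 fell and 1 rose (median -0.12). Gpr182 read 6.48, 6.34 and 6.45 against 6.99, 6.97 and 6.93, Gpihbp1, which anchors lipoprotein lipase in capillaries, fell by 0.42 and the tight junction gene Cldn5 by 0.39, while von Willebrand factor, Vwf, rose by 0.44. Endothelial calls numbered 0 if DKO replicate 3 was left out, 2 if WT replicate 2 was, and 1 if DKO replicate 2, WT replicate 1 or WT replicate 3 was or if the spread came from the 6 arrays. The hyaluronan receptor gene Lyve1 of lymphatic vessels read 9.22, 8.54 and 8.95 against 10.08, 9.90 and 9.75, with DHet at 10.22, 9.90 and 10.39 (log2 -1.005 ± 0.207 SE, adjusted p = 0.0108). That call was lost without DKO replicate 2 and without WT replicate 1. Its brighter probe set lay at -0.86 and was not called, and the lymphatic regulator Prox1 was at 0.10.

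Mesothelium, the lining of the lung surface, had 5 of 12 markers higher and none lower (median 0.35). Msln read 7.98, 8.31 and 8.59 in DKO, 7.53, 7.48 and 7.22 in DHet and 7.26, 7.56 and 7.57 in WT, and Lrrn4, Gpm6a, Krt19 and Cpe rose by 0.67, 0.55, 0.54 and 0.45. DHet overlapped WT in the list mean (6.54 to 6.62 against 6.60 to 6.70). No mesothelial call (0) was made in limma if DKO replicate 3 was left out or with the spread of the 6 arrays, 1 was made if WT replicate 1 was left out, and 3 if DKO replicate 2, WT replicate 2 or WT replicate 3 was. Wt1, a defining transcription factor of mesothelium, was at 0.01.

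Growth factor and matrix genes were tested next. Eln, the elastin gene of alveolar septa, read 13.25, 13.19 and 13.25 in DKO against 12.73, 12.99 and 12.91 in WT in its brighter probe set (log2 0.36 ± 0.126 SE), and the 3 DKO arrays lay above all 6 others, yet it was not called (adjusted p = 0.18). Elastic fibre genes held 1 rise, Mfap5 (0.81), and 2 falls, Mfap4 (-0.45) and Emilin1 (-0.43), of 15. Each of these calls was lost without several single arrays, and 0 remained without DKO replicate 2, DKO replicate 3, WT replicate 1 or WT replicate 2. Of 24 collagen and matrix genes the small proteoglycan gene Dcn rose, with 8.30, 8.76 and 8.46 against 7.76, 7.58 and 7.49, and Vcan fell, with 8.93, 8.37 and 8.42 against 9.46, 9.34 and 9.47. Vcan lost its call without any array except DKO replicate 1, and 2 of its 7 other probe sets were also called lower. In the IGF system, the insulin-like growth factors and their binding proteins, 2 genes rose and 1 fell of 17. Dlk1, an imprinted gene of the fetal period, read 8.12, 8.37 and 8.66 in DKO, 7.56, 7.94 and 7.84 in DHet and 7.21, 7.12 and 6.91 in WT, and Igf2 read 8.95, 9.54 and 9.18 against 8.72, 8.53 and 8.53. The Igf2 call was lost without DKO replicate 2 (adjusted p = 0.0594) and with the spread of the 6 arrays (adjusted p = 0.110). In dimmer probe sets only, Igfbp4 was lower (-0.40 to -0.50 in 3) and Igf2bp3 higher (0.38). Igf1 was at 0.45 in its brightest probe set and not called (adjusted p = 0.214). The retinoid pathway held Aldh1a1 higher and the binding protein gene Crabp1 lower (4.54, 4.48 and 3.85 against 5.09, 5.14 and 5.21) of 18, and the call of Crabp1 was lost with the spread of the 6 arrays (adjusted p = 0.0731).

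Most cell cycle genes of the list lay below WT, and few were called. By the brightest probe set of each of 27 measured, 0 were called in limma, 16 had an unadjusted p under 0.05, all of them lower in DKO, and 26 were below 0, with a median of -0.37. Under the other settings tried the count was 0 to 2. In dimmer probe sets the mitotic kinesin gene Kif11 (-0.65, adjusted p = 0.0082) and the centromeric histone gene Cenpa (-0.66, adjusted p = 0.00489) were called lower. Genes outside the list, picked after their values were seen, were called lower too, among them Cdk4 (-0.47), the cyclin gene Ccnd2 (-0.55), the replication genes Mcm10 (-0.36) and Cdt1 (-0.47), and Fbxo5 (-0.59). Of the cyclin-dependent kinase inhibitor genes, Cdkn1c (0.72) and Cdkn2b (0.44) rose and Cdkn2c fell (-0.80). The topoisomerase gene Top2a read 9.54, 8.82 and 9.19 in DKO against 9.78, 9.70 and 9.53 in WT (log2 -0.49, adjusted p = 0.39), and Mki67 read 9.81, 8.96 and 9.51 against 9.72, 9.51 and 9.56. The list mean was 7.28 to 7.75 in DKO and 7.86 to 7.95 in WT, and the second DKO array was the lowest. Hedgehog and BMP genes (0 of 20, 7 at an unadjusted p under 0.05) and TGF beta genes (0 of 15, 2) had no call in limma either by that reading, and Bmp5 was lower in dimmer probe sets (-0.52 and -0.43). In all, 17 of the 41 lists had none by that reading, covering 246 measured members with 45 at an unadjusted p under 0.05. Over all genes 2581 of 18193 had such a p, and no excess in the lists was tested.

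Genes near the receptors were counted apart, since they can be inherited along with the targeted alleles. Within 20 Mb of Fgfr3 on chromosome 5, 528 other probe sets were tested, and 11 rose and 7 fell (3.41%). Within 20 Mb of Fgfr4 on chromosome 13, 10 rose and 12 fell of 597 (3.69%). Both shares stood above the 1.97% of all probe sets, and no test of that excess was made. The baseline is not like for like. The counts near the receptors use only probe sets that name 1 gene, while 99 of the 885 calls over all probe sets do not name 1 gene. Near Fgfr3, Abhd1, a hydrolase family gene, read 6.47, 6.51 and 6.30 in DKO, 5.83, 6.004 and 5.99 in DHet and 5.59, 5.50 and 5.33 in WT. The genotypes did not overlap, and Abhd1 was called in the other age sets as well (0.64 in the set titled 1 day, where 0.409% of probe sets were called, and 1.15 at 28 days, where 1.29% were). Prom1, Spon2 and Bst1 on the same chromosome were at -0.58, -0.57 and 0.47. Near Fgfr4, the neurotrophin receptor gene Ntrk2 read 8.38, 8.74 and 8.88 in DKO, 7.21, 7.19 and 7.17 in DHet and 7.55, 7.52 and 7.56 in WT. DHet was below WT there, on the other side from DKO. Id4, an inhibitor of helix-loop-helix factors, read 7.33, 7.14 and 7.21 in DKO, 7.33, 7.49 and 7.45 in DHet, and 8.14, 8.15 and 8.21 in WT. The desmosome gene Dsp, also abundant in heart muscle, rose by 0.73 and Tbc1d7 fell by 0.47.

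Where the heterozygous arrays lay was read for all 885 called probe sets, as a description without a test (14 probe sets, 0.0311%, were called between DHet and WT), since the WT and DKO arrays that define each scale had chosen the probe sets. Among the 523 that were higher in DKO, DHet was nearer WT in 424 and nearer DKO in 99, and the median DHet mean lay 21.6% of the way from WT to DKO. Among the 362 that were lower, DHet was nearer WT in 217 and nearer DKO in 145, with a median of 40.0%. Lrg1, Itih4, Hp and Dynlrb2 among the rises and Wnt2 among the falls had DHet nearer WT, and Ctse, Cd59a and Id4 had it nearer DKO. The 3 DKO arrays also differed in how far they went. Over the called probe sets, the median share of the group difference that an array reached was 84.1% in replicate 1, 101% in replicate 2 and 114% in replicate 3.

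The differences were compared with those of the other age sets, in which other arrays were used. The sets stood on unlike scales. Array medians were 5.28 to 5.32 log2 here, 6.68 to 6.74 in the set titled 1 day and 5.84 to 5.89 at 28 days. The part of scale or processing in the contrasts between sets was not tested, and it cannot be told apart from age. The DKO minus WT difference was another size in the set titled 8 day than in the set titled 1 day for 176 probe sets (0.391%), and than at 28 days for 117 (0.26%). Leaving out DKO replicate 2 or 3 brought the first count to 34 or 31, and leaving out WT replicate 1 or 3 to 40 or 68. For the second it was 64 or 51 with DKO replicate 2 or 3 left out and 58 with WT replicate 1 left out. Against the set titled 1 day 7 of 18 heart muscle genes were called, among them Myh6 (1.91 against -0.11, adjusted p = 0.0138) and Tnnt2 (1.68 against 0.03, adjusted p = 0.00967). Lrg1, Itih4, Lcn2 and Hp differed too, so that 4 of the 5 acute phase genes that rose were larger here (Hp 1.29 against 0.12, adjusted p = 0.000975). Wnt2 (-1.75 against -0.27, adjusted p = 0.0265), Slitrk6 (-1.76 against 0.12, adjusted p = 0.00346) and Ppp1r3c (-1.49 against -0.13, adjusted p = 0.0134) fell more. For A2m the 2 sets were close, at -1.36 and -1.17 (adjusted p = 0.784).

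Against the 28-day set, Fgfr4 (-0.95 against 0.02, adjusted p = 0.0134), Slitrk6 (-1.76 against -0.25, adjusted p = 0.016), Hp (1.29 against 0.39, adjusted p = 0.00905) and A2m (-1.36 against -0.13, adjusted p = 0.0134) differed, while Wnt2 did not pass (-1.75 against -0.38, adjusted p = 0.0501). The 6 genes with the smallest p in that contrast were called at 28 days and not here. The mucus-associated gene Clca1 was at 0.03 in the set titled 8 day and at 4.97 at 28 days, and the dendritic cell lectin gene Cd209a at -0.01 and -1.70. Dynlrb2 was 0.92 here, 0.08 in the set titled 1 day and 0.56 at 28 days, and the first pair differed (adjusted p = 0.00705) while the difference from 28 days was not called (adjusted p = 0.329). Fgfr3 was lower in all sets, by 0.87, 1.30 and 1.07, and neither contrast was called (adjusted p = 0.331 and 0.816). Fgfr4, in the probe set described first, was called between DKO and WT only here. It was at -0.21 in the set titled 1 day and at 0.02 at 28 days (limma, adjusted p = 0.502 and 0.983).

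**Figure D4:**
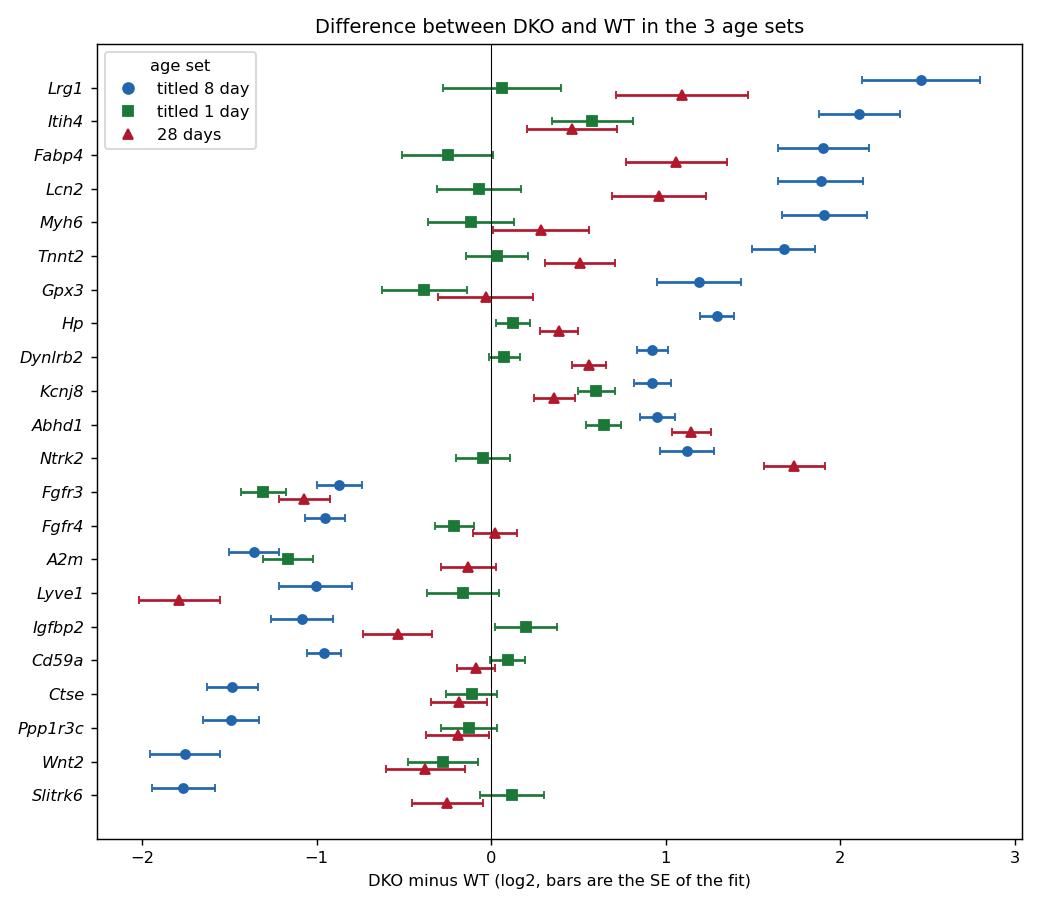
DKO minus WT difference (x axis, log2) of 22 genes in the set titled 8 day (circles), the set titled 1 day (squares) and the 28-day set (triangles), with bars for the SE of the fit. WT had 2 arrays at 28 days. Myh6, Tnnt2, Wnt2, Slitrk6 and Ppp1r3c lay far from 0 in the set titled 8 day and nearer to 0 in both other sets.

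RNA quality moved with genotype to some degree. The log2 ratio of the 3' to the 5' actin control probe set was 0.59, 0.39 and 0.52 in DKO, 0.29, 0.43 and 0.31 in DHet and 0.24, 0.15 and 0.38 in WT, so that all DKO arrays were above all WT arrays. For Gapdh it was -0.20 ± 0.0744 in DKO and -0.37 ± 0.112 in WT (SD, n = 3 each). The part of RNA quality in the differences above was not tested.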

How the data were processed

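Lung RNA was labelled with biotin and hybridised to Affymetrix expression arrays, each with RNA from 3 pooled animals per the series' design text. The authors deposited log2 levels per probe set, here from 2.68 to 14.8, and the sources used here do not give how these were summarised and normalized. After 64 controls were removed, 45037 of 45101 probe sets stayed. Of these, 34945 name 1 gene, 932 several and 9160 none in the platform annotation, and symbols were updated through Entrez identifiers for 34741.

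All 26 arrays were fitted in limma 3.58.1 (R 4.3.3) with lmFit and eBayes, as 9 group means without covariates (17 residual and 5.50 prior degrees of freedom). Benjamini-Hochberg adjustment covered all 45037 probe sets, and a call is an adjusted p under 0.05. Because the spread is shared by the 9 groups, a p does not measure the spread of 1 group, and the number of arrays limits the precision. No batch was given in the labels. The fit was tested on simulated data for the comparison of DKO with WT titled 8 day over 45037 probe sets. There 62.7% of differences of 0.5 log2, 100% of 1 log2 and 100% of 2 log2 were called, as were 7 unchanged probe sets. The simulated noise of a probe set had 1 spread in all groups. The data did not always, as in Lrg1 (SD 1.18 in DKO and 0.0921 in WT). The shares called therefore do not apply to genes whose DKO arrays lay far apart.

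The members and the 41 gene lists were chosen with earlier results of these data known. Of 708 list members 657 had a probe set, and the brightest over the 6 arrays stands for a gene. Genes are named by rule: all probe sets of Fgfr1 to Fgfr4, Eln and Igf1; the 12 largest rises and 12 largest falls that are called, do not overlap, name 1 gene and have a higher group mean at or above the median, with the probe set of smallest p for a gene; up to 4 called members per list and all FGF genes; up to 6 genes per contrast of age sets; and up to 4 called genes within 20 Mb of each receptor (GRCm38.p6 annotation). Other list members were named after their values were seen. A difference printed for the probe set of smallest p can exceed that of other probe sets: of 39 called probe sets whose gene has others, 16 had no other called. Alternatives were the probe sets tested, the arrays that give the spread, the prior, the scaling, a block and leaving out each array.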

Additional observations from a re-analysis of the deposited data

Results flagged for a closer look

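Each value here is the DKO minus WT difference of the set titled 8 day minus that of another age set (log2), and each passed the limma test of that contrast at an adjusted p under 0.05. No explanation was weighed.

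Against the set titled 1 day the difference was more positive in heart muscle genes, by 2.02 in Myh6, 1.64 and 1.98 in 2 of the 3 Tnnt2 probe sets, 1.65 in Ttn, 1.22 in Tnni3 and 1.29 in Csrp3. In acute phase genes it was more positive by 2.40 in Lrg1, 1.53 in Itih4, 1.96 in Lcn2 and 1.17 in Hp. The fatty acid carrier gene Fabp4 stood 2.15 higher, Gpx3 1.57, Dlk1 1.49, Dcn 1.12, Dynlrb2 0.85, Abcc9 0.69 and Scgb3a2 0.56. Ntrk2 near Fgfr4 stood 1.17 higher and Bst1 near Fgfr3 0.60. More negative were Slitrk6 (-1.88), Wnt2 (-1.48), Ctse (-1.37), Ppp1r3c (-1.36), Igfbp2 (-1.28), Adam12 (-1.21), Ptpn5 (-1.14), Cd59a (-1.05) and Fgfr4 (-0.74).

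Against the 28-day set the difference was more positive in Itih4 (1.65), Tnni3 (1.04), Hp (0.91) and Vwf (0.75). It was more negative in Pisd-ps3 (-1.89), Slitrk6 (-1.51), Ppp1r3c (-1.30), Ctse (-1.30), A2m (-1.23), Fgfr4 (-0.97), Ptpn5 (-0.95), Prom1 (-0.91) and Cd59a (-0.87). Other genes were called at 28 days and not here, so that the contrast was -4.94 in Clca1, -1.29 in Npy1r, 2.09 in Ankrd63, 1.69 in Cd209a, 1.58 in Ccl5 and 1.49 in Scn3a. Gpr182 fell in both sets, less here by 1.11.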

How the results depend on the processing

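Against 885 calls between DKO and WT, the other settings gave 709 (replicate block) to 1067 (the level filter), except 194 with the spread of the 6 arrays. Leaving out single arrays gave 360 to 947. Same-numbered DKO and WT arrays deviated together with r of 0.103, 0.0347 and 0.0759, and other-numbered ones with r of -0.114 to 0.0571. The main fit did not pair the samples by number, and an effect shared by a number was tried only as the replicate block. The replicate block moved the contrast with the set titled 1 day from 176 to 78 probe sets and that with the 28-day set from 117 to 69, and it kept 4 of the 7 Fgfr3 and Fgfr4 probe sets called. Leaving out single arrays gave 31 to 252 in the first contrast, 51 to 172 in the second, and 2 to 3 of the receptor probe sets. The spread of 6 or 9 arrays cannot be used for contrasts between sets. Of the 79 named probe sets called, 32 kept the call under every setting, 31 lost it without at least 1 array, and none changed sign. The cause of these changes was not tested, beyond fewer arrays in the fit. Among the level filters, the second requires a mean at or above the median over the 6 arrays and gave 1053.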

Other observations

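The DHet arrays titled 8 day were called against WT at 14 probe sets, and several of these were also called in DKO. The autophagy gene Atg7 read higher in both (0.45 in DHet and 0.58 in DKO), Ggps1, a gene of isoprenoid synthesis, lower in both (-0.52 and -0.52), and both probe sets of Cd59a lower in both. The mitochondrial transhydrogenase gene Nnt was at -1.25 in DHet and at -0.36 in DKO, where it was not called (adjusted p = 0.288). Clca1 read 5.62, 5.93 and 6.44 on the DHet arrays, above 3.69, 4.05 and 4.15 in DKO and 3.88, 4.09 and 3.84 in WT. These values were chosen after they were seen.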
